A study of Mus musculus with 8 samples.

Results

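The genes described here are the ligands and receptors of the semaphorin, ephrin, slit and netrin families. They were chosen by symbol alone: every array probe whose gene name in the scanner files belongs to the semaphorins Sema3 to Sema7, the plexins, the neuropilins, the ephrins, the Eph receptors, the slits, the Robo receptors, the netrins, the Unc5 receptors or Dcc. This gave 101 probes of 69 genes, out of 55681 probes and 23618 named genes on the array. Expression was measured on one-colour Agilent arrays in 4 groups of 2 independently prepared samples. Pulmonary single cells (Pu) are the unsorted suspension of the adult lung, while the fibroblasts called A-type, B-type or C-type are cells sorted from such a suspension. All came from female C57BL/6 mice aged 12 to 16 weeks, with 50000 cells per sample and 10 ng of RNA amplified, and the labels name no transgene and no treatment. The sort used antibodies to Pdgfra, Sca-1 and Thy-1, to the blood cell proteins CD45 and TER119, to the vessel proteins Lyve-1, CD146 and CD31, and to E-cadherin of epithelium. The combination of markers that sets A, B and C apart and the number of mice behind a sample are not given in the sources used here. No source says that the samples of a group came from different mice. The p-values therefore measure the spread between preparations, pooled over the 4 groups, and this spread may be technical in part.

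As background, these families were first known for steering growing axons, and they also act in lung branching, vessel growth and the movement of immune cells. Semaphorins bind plexins, and most secreted Sema3 proteins need a neuropilin as a co-receptor. Ephrins are bound to the cell surface and signal in both directions with the Eph receptor tyrosine kinases of a neighbouring cell. Slits are secreted and bind Robo receptors, and netrins are secreted relatives of laminin that bind Dcc, neogenin and the Unc5 receptors.

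Levels below are log2 signals minus the log2 of the array's own 75th percentile, so 0 is that percentile and a unit is a doubling. They are compared between arrays for the same probe and not between genes. A gene was tested if the scanner software called a probe of it well above background in both samples of any group, and its brightest probe of that kind stands for it. Of the 69 genes 64 passed, and Efnb3, Epha8, Robo3, Slit1 and Unc5d did not. A gene was called when limma's moderated test gave a Benjamini-Hochberg adjusted p under 0.05 over all 17263 genes tested. Of the 64 tested members, 61 were above background on both Pu arrays, 56 on both A arrays, 54 on both B arrays and 51 on both C arrays, and 49 were above it on all 8 arrays. Of all spots, 68.7% were well above background on each Pu array, 66.4% and 60.6% on A, 60.7% and 63.4% on B, and 60.6% and 54.6% on C.

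The members called between fibroblast types were Sema3c, Nrp2, Slit2 and Epha7. Sema3c is a secreted semaphorin, and Nrp2 is a neuropilin through which it can signal. Slit2 is a secreted ligand of the Robo receptors, and Epha7 is a receptor of the ephrin-A ligands. The 250 bases before the RefSeq start of each (GRCm38.p6) are printed because these members passed the threshold between types. Some members that missed it, given below, had differences as large. Nrp2, Slit2 and Epha7 were lower in B than in C, and Sema3c was higher. Capitals mark matches, on either strand, to GGGCGG (the core of a GC box), CCAAT and TATAAA. The first of the 2 starts listed for Epha7 was used.
Sema3c, chr5:17574566-17574815 (+): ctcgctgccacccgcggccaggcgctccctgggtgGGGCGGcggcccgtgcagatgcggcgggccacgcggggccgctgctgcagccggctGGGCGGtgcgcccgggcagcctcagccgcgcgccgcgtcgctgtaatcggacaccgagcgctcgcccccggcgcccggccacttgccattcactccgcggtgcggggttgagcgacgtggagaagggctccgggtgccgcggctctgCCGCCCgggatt
Nrp2, chr1:62703067-62703316 (+): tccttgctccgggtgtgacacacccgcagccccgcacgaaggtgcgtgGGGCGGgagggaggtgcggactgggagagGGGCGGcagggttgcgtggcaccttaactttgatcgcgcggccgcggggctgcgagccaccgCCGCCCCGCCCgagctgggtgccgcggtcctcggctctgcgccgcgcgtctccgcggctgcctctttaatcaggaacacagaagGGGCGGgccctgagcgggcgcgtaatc
Slit2, chr5:47982905-47983154 (+): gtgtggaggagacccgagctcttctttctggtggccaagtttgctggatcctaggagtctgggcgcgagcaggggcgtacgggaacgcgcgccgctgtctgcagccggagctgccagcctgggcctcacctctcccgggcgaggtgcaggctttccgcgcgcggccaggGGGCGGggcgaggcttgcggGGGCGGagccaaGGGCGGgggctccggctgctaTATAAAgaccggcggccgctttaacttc
Epha7, chr4:28812881-28813130 (+): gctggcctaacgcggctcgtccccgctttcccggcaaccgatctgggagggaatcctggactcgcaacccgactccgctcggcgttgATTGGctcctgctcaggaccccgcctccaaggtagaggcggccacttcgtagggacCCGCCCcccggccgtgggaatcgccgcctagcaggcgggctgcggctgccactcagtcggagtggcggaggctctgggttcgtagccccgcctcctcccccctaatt
GGGCGG occurred 3 times before Sema3c, 5 times before Nrp2 (2 of them overlapping in 1 stretch), 3 times before Slit2 and once before Epha7. TATAAA was found before Slit2 and CCAAT before Epha7. Among all 32841 windows of this length in the table, 32.7% held GGGCGG, 33.9% CCAAT and 12.4% TATAAA. The 4 windows had a GC content of 78.4% (Sema3c), 72.4% (Nrp2), 69.6% (Slit2) and 69.2% (Epha7), against a median of 52.4% over all windows. The promoter table held 59 of the 69 genes and lacked Dcc, Efnb3, Ntn1, Plxna1, Plxna4, Sema3b, Sema3f, Sema6a, Slit1 and Unc5d.

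Facts of the whole series bear on every comparison. Both Pu arrays lay on one slide and all 6 fibroblast arrays on another, so slide and the fibroblast to Pu contrast cannot be told apart, while the types are compared within a slide. The 75th percentile of the signal ranged from 113 to 260 units, and 54.6% to 68.7% of spots were well above background. Of the 64 members, 23 differed at least 2-fold between the Pu arrays, 12 between the C arrays, 3 between the B arrays and 2 between the A arrays. Over all genes these shares were 31.4% in Pu, 20.8% in C, 5.44% in B and 5.14% in A. The fit pools the spread of a gene over these unequal groups. The SE and p of any comparison, also between types, thus rest in part on groups outside it. Among markers, 8 of 8 fibroblast genes were higher in the fibroblasts, and 8 of 8 blood endothelial, 8 of 8 leukocyte and 8 of 8 epithelial genes were lower. The summed linear level of the endothelial list, relative to the 75th percentile, was 74.3 and 99.4 on the Pu arrays and 5.14 to 12.4 on the fibroblast arrays. That of the leukocyte list was 299 and 316 against 1.61 to 2.37, and that of the epithelial list 1189 and 1094 against 2.18 to 17.0. Of 4 lymphatic endothelial and 4 mesothelial genes 3 each were lower. Of 6 smooth muscle genes 3 were lower, of 6 pericyte genes 2 were higher and 2 lower, and of 5 tested Schwann and neural genes 2 were higher and 2 lower. Pdgfra, Pecam1 (CD31), Ptprc (CD45), Cdh1 (E-cadherin) and Lyve1 in these lists encode proteins bound by the sort antibodies. Their direction is thus no separate evidence of what the sort left. These lists move with the contrast of fibroblasts against Pu, and their part in the member differences was not tested. In such bulk samples, fewer cells of a type and less RNA per cell cannot be told apart.

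Against the suspension, the fibroblasts had more Sema3d, Slit3, Epha3, Efna5 and Robo1, and less Robo4, Sema4f, Sema7a, Sema4a, Epha2 and Efnb2. In all, 16 members were higher and 17 lower in the mean of the 3 fibroblast types, which is 33 of 64, or 51.6%. Over all genes tested 37.1% were called, 20.8% higher and 16.3% lower. The median log2 difference of the members was -0.06, and that of all genes 0.10. Against Pu, 13 members were higher and 13 lower in A (27.1% of all genes called), 11 and 15 in B (29.5%) and 14 and 15 in C (28.9%). These contrasts share the Pu arrays. Higher in each of the 3 types were Efna5, Epha3, Ntn3, Robo1, Sema3b, Sema3d, Slit2 and Slit3. Lower in each were Efnb2, Epha2, Epha6, Robo4, Sema3f, Sema3g, Sema4a, Sema4f, Sema6a, Sema6b and Sema7a. The share of all genes called in every type is not given here, so the length of these lists has no background to be read against.

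**Figure D1:**
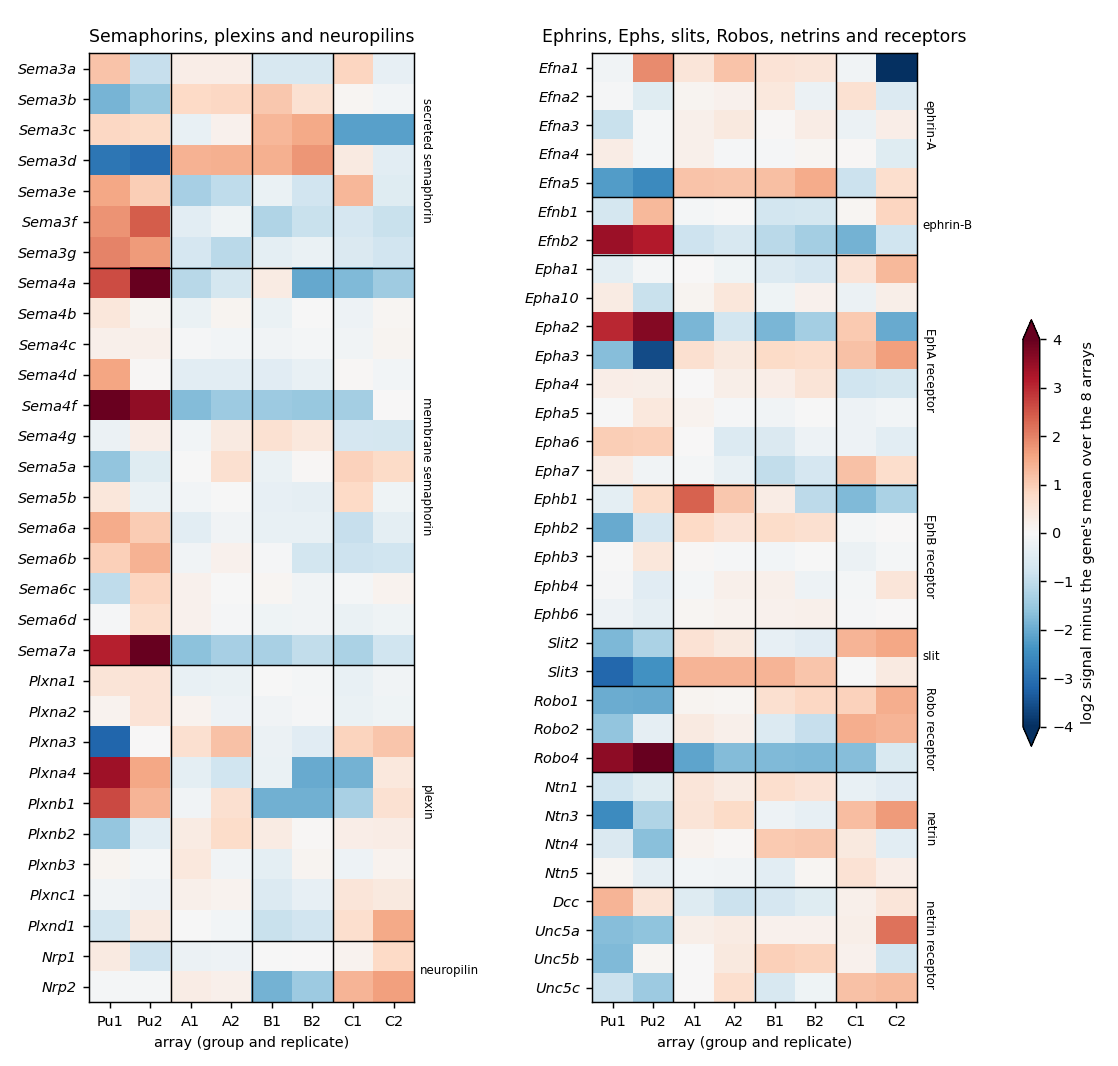
Each cell is the log2 signal of a tested member (row, grouped by role) on an array (column), minus that gene's mean over the 8 arrays; the colour scale ends at -4 and 4. Robo4, Sema4f and Sema7a are high on both Pu arrays, Slit3 and Sema3d are low there, and Sema3c and Nrp2 differ in opposite ways between the B and C arrays.

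The secreted semaphorins split in both directions: of 7 tested, 2 were higher and 4 lower. Sema3d, a ligand that signals through Nrp1, was at -2.06 and -2.19 on the Pu arrays, 2.25 and 2.26 on A, 2.27 and 2.61 on B, and 1.19 and 0.43 on C. All 6 fibroblast values lay above both Pu values, and the fit gave a log2 difference of 3.96 with a standard error (SE) of 0.28, a fold of 15.6 (limma, adjusted p = 8.5e-05). Sema3b, another ligand of the neuropilins, had Pu values of 0.07 and 0.44 and fibroblast values from 1.82 to 3.01, a difference of 2.22 (SE 0.25).

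Sema3f, a ligand of Nrp2 that repels endothelial cells, went the other way. It was at 1.85 and 2.48 on Pu, -0.36 and -0.13 on A, -1.15 and -0.83 on B, and -0.62 and -0.82 on C, a difference of -2.82 (SE 0.26, 7.05-fold lower). On the array's mm9 coordinates the probes of these genes lie 83.1 kb apart, Sema3b at chr9:107500686-107500745 and Sema3f at chr9:107583833-107583892. Sema3g, known from arterial endothelium, fell by 2.47 on the log2 scale (SE 0.24). Its second probe had Pu values of 3.17 and 3.60 and fibroblast values from -5.45 to -2.66, with 1 of the fibroblast arrays above background, and was at least 129-fold lower (limma on all probes, adjusted p = 0.000171); both probes were lower, by very different amounts. Sema3e, a Plxnd1 ligand that needs no neuropilin, was above background on Pu alone, with a difference of -1.68 that as a bound was at least 1.13-fold, and 1 C array (-3.69) lay between both Pu values (-3.47 and -4.04). Its call was lost without any single Pu, A or B array.

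Sema3c fell by 1.08 in the mean of the types, and its groups overlapped, since both B values lay above Pu and all A and C values below it; the types are set out below. Sema3a, the classic repellent ligand of Nrp1, had a difference of -0.15 with a 95% interval from -1.48 to 1.18. Its Pu arrays lay at 0.15 and -1.94.

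Of 13 membrane semaphorins, 1 was higher and 5 were lower. Sema4f and Sema7a are membrane-bound, and Sema7a is tethered by a lipid anchor and acts on leukocytes and integrins. Sema4f lay at -0.37 and -0.75 on Pu and between -6.04 and -4.30 on the fibroblast arrays, none of which was well above background, so its signal was at least 10.5-fold lower (log2 difference -5.0, SE 0.38). Sema7a lay at -1.5 and -0.37 on Pu and between -6.26 and -5.39 on fibroblasts, again with no fibroblast array above background, and was at least 8.10-fold lower (log2 difference -4.89, SE 0.35).

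Sema4a, an immune semaphorin, lay at -0.63 and 0.88 on Pu, -4.34 and -3.92 on A, -2.90 and -5.28 on B, and -4.99 and -4.65 on C. It was above background on 1 fibroblast array only and was at least 15.2-fold lower. Its log2 difference of -4.47 was -5.23 without Pu1 and -3.72 without Pu2. Sema6a and Sema6b, ligands of the A plexins, fell by 1.66 and 1.57, with no overlap between the groups. Sema5a, a membrane semaphorin with thrombospondin repeats, was higher by 1.38 (SE 0.35), a call lost without Pu1, A2 or B2.

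Some membrane semaphorins depended on the probe or on a Pu array. Sema4d, known as CD100 of lymphocytes, was not called by its brighter probe (log2 difference -1.1, SE 0.39, adjusted p = 0.0658), though it was called without Pu2 (-1.86). Its second probe lay at 1.1 and 1.17 on Pu and between -5.75 and -2.72 on the fibroblasts, with no A array above background, at least 25.8-fold lower (adjusted p = 0.000271 in the fit of all probes). Sema6c was at 1.23 on Pu1 and 3.11 on Pu2 with fibroblast values from 2.10 to 2.41; it was called lower without Pu1 (log2 difference -0.84) and higher without Pu2 (1.03), and was not called with both. Its second probe was called higher with both Pu arrays in the fit (1.54, adjusted p = 0.0147 in the fit of all probes). Sema4b, Sema4g and Sema5b differed by -0.37, -0.04 and -0.13 and were not called.

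**Figure D2:**
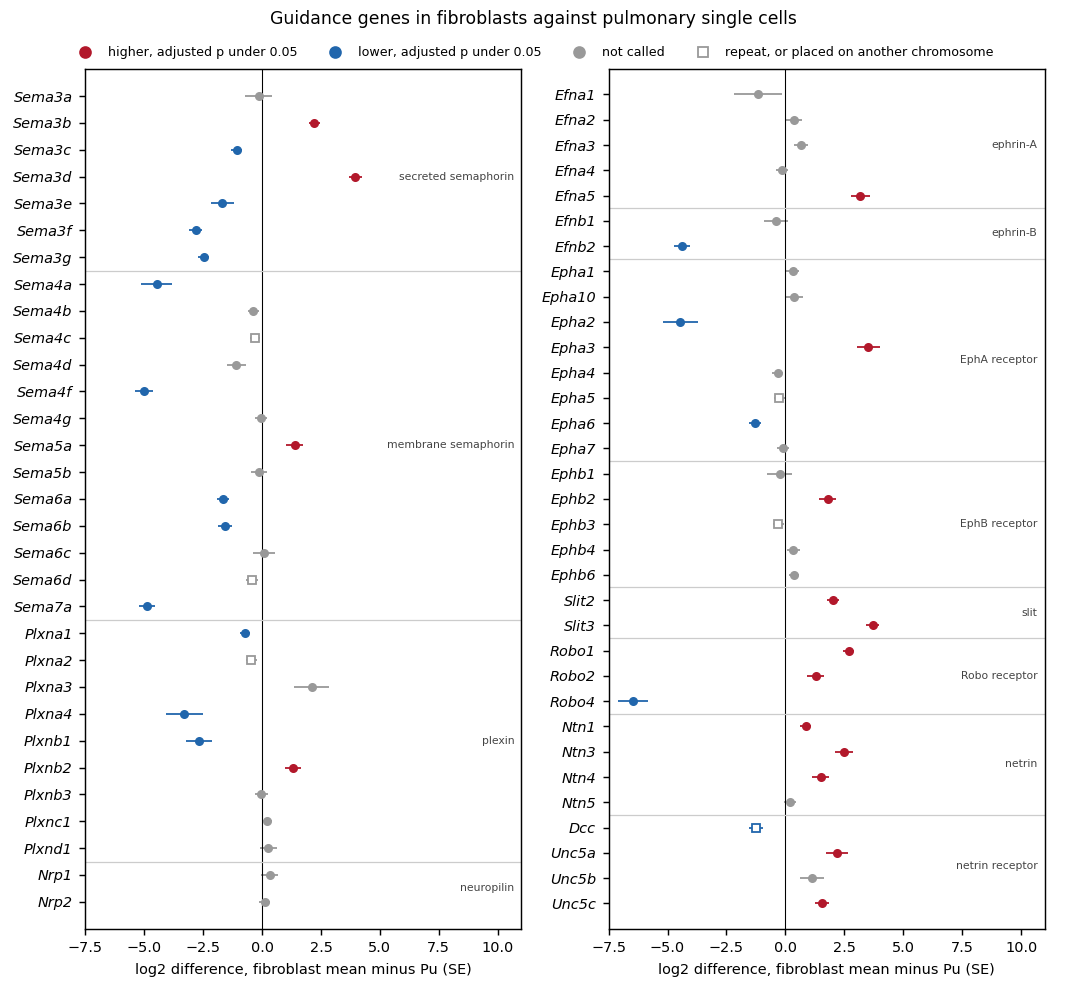
Points are the log2 difference between the mean of the 3 fibroblast types and Pu for each tested member, grouped by role, with bars of 1 SE from the limma fit. Red and blue mark the 16 higher and 17 lower members, and open squares mark genes whose probe holds a long repeat or is placed on another chromosome; Robo4 is farthest to the left at -6.46 and Sema3d farthest to the right at 3.96.

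Among the semaphorin receptors, 1 of 9 plexins was higher and 3 were lower, and neither neuropilin was called. Plxnb2, the receptor of Sema4c, Sema4d and Sema4g, lay at -0.34 and 0.77 on Pu and at 1.24 to 1.93 on the fibroblasts, a difference of 1.32 (SE 0.34) whose call was lost without Pu1, A2 or B1. Plxnb1, a Sema4d receptor, lay at -1.22 and -2.49 on Pu and at -5.80 to -3.24 on the fibroblasts, of which 1 array was above background, and was at least 3.81-fold lower. Its log2 difference of -2.68 was -2.04 and no longer called without Pu1. Plxna4, a receptor of Sema6a and Sema6b, lay at -0.43 and -2.29 on Pu and at -5.85 to -3.42 on the fibroblasts, none of them above background, at least 6.05-fold lower. Without Pu1 its difference was -2.37 and not called, and without Pu2 it was -4.23; its second probe was at least 8.55-fold lower. Plxna1 fell by 0.71, with its call lost without either A or either B array.

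Plxna3 differed by 2.11 and was not called (adjusted p = 0.0618), with Pu arrays at -5.93 and -2.72. It was called higher without Pu2 (3.71), with median scaling (2.47), with a normexp background correction (0.51) and on the values of the authors' deposited table (2.46). Plxnd1, the receptor of Sema3e that can also bind Sema3c with a neuropilin, differed by 0.26 (95% interval -0.61 to 1.13). Nrp1 differed by 0.32 (-0.53 to 1.16) and Nrp2 by 0.10 (-0.45 to 0.66). For Nrp2 this mean hides opposite differences, since it was lower than Pu in B and higher than Pu in C.

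The ephrins gave 1 member in each direction. Efna5, a lipid-anchored ligand of several EphA receptors, was at -2.73 and -3.03 on Pu, 0.63 and 0.62 on A, 0.71 and 0.99 on B, and -1.36 and 0.19 on C. All fibroblast values were above Pu, with a log2 difference of 3.18 (SE 0.40, 9.07-fold). Efnb2, the transmembrane ligand that marks arterial endothelium, lay at 4.26 and 3.99 on Pu, 0.01 and 0.17 on A, -0.24 and -0.53 on B, and -1.06 and 0.03 on C. It was 21.0-fold lower (log2 difference -4.39, SE 0.33), its second probe gave -4.66, and all fibroblast arrays were still above background. All 8 blood endothelial markers were lower in the same contrast, and 6 of 8 in B against Pu. Pecam1, also a target of the sort, lay at 3.49 and 3.34 on Pu and at -3.98 to -1.89 on the fibroblasts. Kdr lay at 2.97 and 3.54 on Pu and at 1.67 to 2.03 on the fibroblasts. Their part in the Efnb2 difference was not tested.

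The other ephrins were not called. Efna2 and Efna4 differed by 0.35 and -0.16. Efnb1 had Pu arrays at 1.06 and 3.08 and differed by -0.39, and without Pu1 by -1.40, which was called. Efna3 differed by 0.65 by its brighter probe (1.04 and called without Pu2). Its second probe, not above background on Pu, was at least 2.55-fold higher (adjusted p = 0.000953 in the fit of all probes). Efna1, the main partner of Epha2, had 1 C array at -1.11 and the other at -5.19, and its difference of -1.16 had an SE of 1.02; without C1 it was -1.84 and called.

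The EphA receptors included members far apart. Epha3, a receptor of Efna5, lay at -1.24 and -3.11 on Pu, 1.1 and 0.86 on A, 1.23 and 1.18 on B, and 1.63 and 2.10 on C, a log2 difference of 3.52 (SE 0.47, 11.5-fold). It was 4.46 without Pu1 and 2.59 without Pu2. Epha2, an epithelial and endothelial receptor, lay at 1.54 and 2.20 on Pu, -3.29 and -2.19 on A, -3.30 and -2.83 on B, and -0.42 and -3.47 on C, 22.0-fold lower (log2 difference -4.46, SE 0.76). One of its C arrays was not above background. C1 had the highest summed epithelial level of the fibroblast arrays (17.0), while C2, with the next highest (8.21), had the lowest Epha2 value. A link was not tested.

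Epha6 was above background on both Pu arrays and on 1 fibroblast array, with a bound of at least 1.96-fold lower. Epha1, Epha4, Epha7 and Epha10 differed by at most 0.37 in either direction in the mean of the types and were not called there; against Pu, C alone was called higher for Epha1 (1.16) and lower for Epha4 (-1.0). Of 5 EphB receptors 1 was higher: Ephb2, which binds the ephrin-B ligands and Efna5, lay at 0.58 and 1.94 on Pu and at 2.54 to 3.42 on the fibroblasts. Its difference of 1.80 (SE 0.37) was 1.12 without Pu1 and 2.47 without Pu2. Ephb4, the venous partner of Efnb2, differed by 0.34 (95% interval -0.31 to 1.00), and Ephb6 by 0.38 (0.74 and called with median scaling). Ephb1 was above background on both A arrays (-1.82 and -3.08), on 1 of the Pu arrays (-4.55 and -3.43) and on no B or C array. It was called in none of the comparisons.

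Both measured slits were higher, and the Robo receptors split. Slit3 lay at 0.37 and 1.08 on Pu, 4.87 and 4.88 on A, 4.87 and 4.63 on B, and 3.51 and 3.87 on C, 13.1-fold higher (log2 difference 3.71, SE 0.27, adjusted p = 0.000105). Slit2 lay at -1.45 and -0.92 on Pu and at -0.12 to 1.88 on the fibroblasts, 4.08-fold higher (2.03, SE 0.24). Robo1, a receptor of both, lay at -1.95 and -1.98 on Pu, 0.15 and 0.14 on A, 0.69 and 0.89 on B, and 0.99 and 1.5 on C, 6.43-fold higher (2.69, SE 0.24). Its second probe, above background on no Pu or C array, was not called (adjusted p = 0.0890 in the fit of all probes). Robo2 was higher by 1.28 (SE 0.35), but its B values of -1.23 and -1.60 lay between its Pu values of -2.26 and -1.05, and the difference was 0.68 and not called without Pu1 (1.89 without Pu2).

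Robo4, the Robo receptor of endothelium, had the largest fitted difference among the probes that stand for the members, though only a bound can be given. It lay at -0.49 and 2.07 on Pu, -6.15 and -5.78 on A, -5.81 and -5.83 on B, and -5.76 and -4.66 on C, and no fibroblast array was above background. Its signal was therefore at least 26.9-fold lower, and the fitted log2 difference of -6.46 (SE 0.64) was -7.74 without Pu1 and -5.18 without Pu2. Among the endothelial markers, Cdh5 lay at 4.31 and 4.16 on Pu and at -5.36 to -3.41 on the fibroblasts. It was above background on 1 array of each type. Ramp2 lay at 2.15 and 3.25 on Pu and at -0.72 to 2.20 on the fibroblasts, all above background. Robo3, whose probe lies 2.8 kb from that of Robo4 in mm9, was above background on both arrays of no group.

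Of 4 netrins 3 were higher and none lower. Ntn3 lay at -4.34 and -3.05 on Pu, with 1 of these arrays above background, -1.33 and -1.06 on A, -2.03 and -2.15 on B, and -0.59 and -0.13 on C, a log2 difference of 2.48 (SE 0.37) that was 1.83 without Pu1 and 3.13 without Pu2. Ntn4, a basement membrane netrin, was higher by 1.51 (SE 0.36), a call lost without Pu2. Ntn1, the founding netrin, was higher by 0.86 (SE 0.22), with Pu at 2.39 and 2.71 and fibroblasts at 2.75 to 3.88; its call was lost without Pu1 or any A or B array. Ntn5 differed by 0.19.

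Of the netrin receptors, Unc5a and Unc5c were higher. Unc5a lay at -3.26 and -3.18 on Pu, -1.33 and -1.23 on A, -1.40 and -1.42 on B, and -1.35 and 0.59 on C, 4.60-fold higher (log2 difference 2.20, SE 0.47), a call lost without Pu1. Unc5c was higher by 1.54 (SE 0.30), and its second probe, not above background on Pu, was at least 6.33-fold higher. Unc5b, the vascular netrin receptor, differed by 1.12 (95% interval -0.07 to 2.31), and by 2.05 without Pu2 (at -0.16, with Pu1 at -2.02), which was called. Dcc was called lower (-1.25), but by a probe that holds a long repeat, described below.

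**Figure D3:**
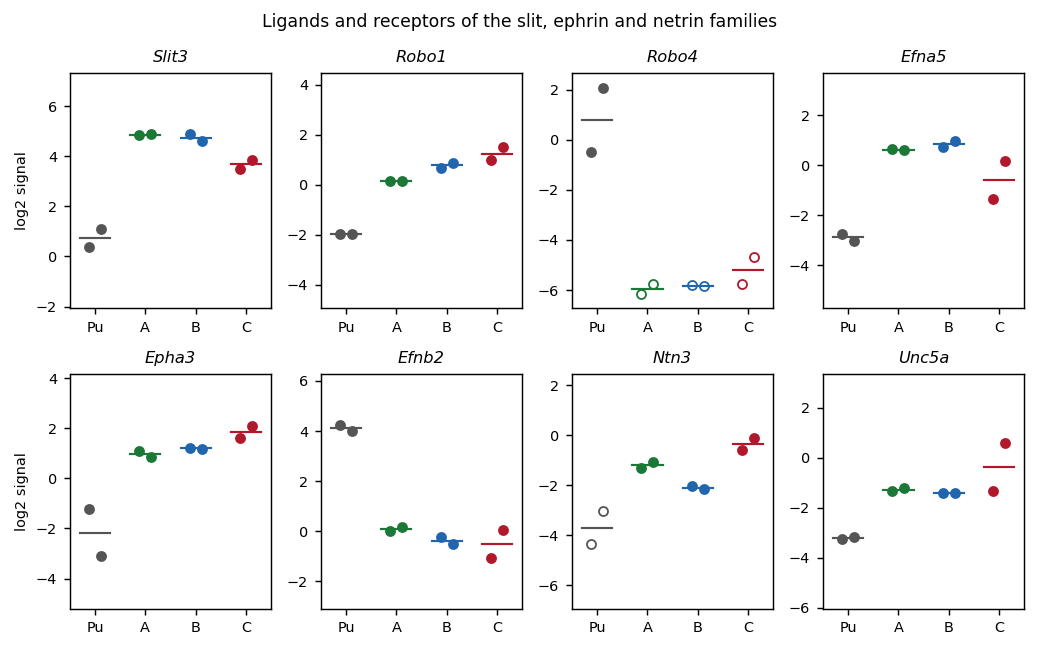
Log2 signal on each array (points) and the group mean (bars) for 8 members of the slit, ephrin and netrin families; every panel spans the same range, and open points mark groups in which a probe was not above background on both arrays. Slit3, Robo1, Efna5 and Epha3 are higher on all 6 fibroblast arrays than on Pu, and Robo4 and Efnb2 are lower.

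Of 56 ligand and receptor or co-receptor pairs listed from general knowledge, 6 rest on a repeat or misplaced probe and were set aside. In the remaining 50, both partners were above background on both arrays in 43 pairs in Pu, 38 in A, 38 in B and 35 in C. This held for 35 pairs in all 3 fibroblast types. The share of all spots well above background was also lower on every fibroblast array than on Pu, and lowest on C2. Both partners were higher in the mean of the fibroblast types in 9 pairs: Efna5 with Epha3 and with Ephb2, Slit2 and Slit3 each with Robo1 and Robo2, Ntn1 with Unc5a and with Unc5c, and Ntn3 with Unc5c. Both were lower in 3 pairs: Sema4a with Plxnb1, and Sema6a and Sema6b with Plxna4. Type by type, only Efna5 with Epha3, and Slit2 and Slit3 with Robo1, had both partners called higher than Pu in A, B and C. Robo2 was called higher in C alone, Ephb2 and Ntn1 in A and B, and Unc5a and Unc5c in A and C. Plxnb1 and Plxna4 were called lower in B and C but not in A. The calls of Robo2 and Ntn1 in the mean were lost without some single arrays. In 2 pairs the ligand was higher and the receptor lower (Sema5a with Plxna1, Slit3 with Robo4), and in 0 the reverse. In 27 pairs 1 partner was called and in 9 neither was. The 50 include pairs with Efnb3, Slit1 or Unc5d, which were not tested. These genes count here as not called and not above background. Pairs share members, so their counts are not independent.

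Between the types, all on a single slide, few members were called. In B against C 1 member was higher and 3 were lower, 6.25% of the members against 2.44% of all genes (1.26% higher and 1.18% lower); 19 members and 15.2% of all genes had an unadjusted p under 0.05. In A against C 1 member was called, higher in A, against 0.411% of all genes (0.295% higher and 0.116% lower); 21 members and 13.0% of all genes had an unadjusted p under 0.05. In A against B no member and 0% of all genes were called by limma, and 6 members and 3.24% of all genes had an unadjusted p under 0.05. With array weights 3 members (Nrp2, Plxnb1 and Sema3c) and 1.39% of all genes were called there, and with a normexp background correction 1 (Nrp2) and 0.122%.

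Sema3c was highest in B and lowest in C. It lay at 2.69 and 2.63 on Pu, 1.56 and 2.03 on A, 3.18 and 3.36 on B, and -0.32 and -0.34 on C, and no type overlapped another. B exceeded C by 3.60 (SE 0.29, 12.1-fold, adjusted p = 0.00317) and A exceeded C by 2.12 (SE 0.29, 4.35-fold, adjusted p = 0.0430), while A minus B was -1.48 (adjusted p = 0.256). Against Pu, C was 7.91-fold lower (log2 difference -2.98), and A and B were not called (-0.86 and 0.61). The second Sema3c probe ran the same way, at 0.97 and 1.06 on B and -2.70 and -3.23 on C, where 1 array was above background, a difference of 3.98 (adjusted p = 0.00532 in the fit of all probes). The difference between A and C was no longer called without A1, A2, B1, B2 or C2.

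Nrp2 had the opposite order. It lay at 3.28 and 3.29 on Pu, 3.65 and 3.58 on A, 1.46 and 1.90 on B, and 4.71 and 5.0 on C. B minus C was -3.18 (SE 0.29, 9.04-fold, adjusted p = 0.0045). B was 3.03-fold lower than Pu (log2 difference -1.60, adjusted p = 0.00667) and C 2.98-fold higher (1.58, adjusted p = 0.00744), with A between them at 0.33. A minus B was 1.93 (adjusted p = 0.211) and A minus C -1.24 (adjusted p = 0.136), neither of them called, with no overlap of arrays in either. The second Nrp2 probe gave 0.55 and 0.68 on B and 2.57 and 3.10 on C, a difference of -2.22 that was not called (adjusted p = 0.0663 in the fit of all probes). Against Pu, at 0.33 and 1.45, that probe gave -0.28 for B, not called (adjusted p = 0.677), and 1.94 for C, called (adjusted p = 0.020), so the difference of B from Pu rests on 1 probe.

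Other receptors and ligands of this pair were not called between B and C. Plxnd1 lay at 0.58 and 0.46 on A, -0.30 and -0.18 on B, and 1.25 and 2.10 on C, and B minus C was -1.92 (SE 0.45, adjusted p = 0.0878). Nrp1, the other co-receptor of Sema3c, lay at 0.39 and 0.44 on A, 0.60 and 0.64 on B, and 0.77 and 1.42 on C, with B minus C at -0.48. Plxna3, a plexin that works with Nrp2, lay at -2.09 and -1.56 on A, -2.98 and -3.19 on B, and -1.85 and -1.62 on C. Among the other ligands of Nrp2, Sema3f, Sema3g and Sema3b differed between B and C by -0.27, 0.33 and 0.86, none called. Sema3d gave 1.63 for B minus C (adjusted p = 0.0624).

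**Figure D4:**
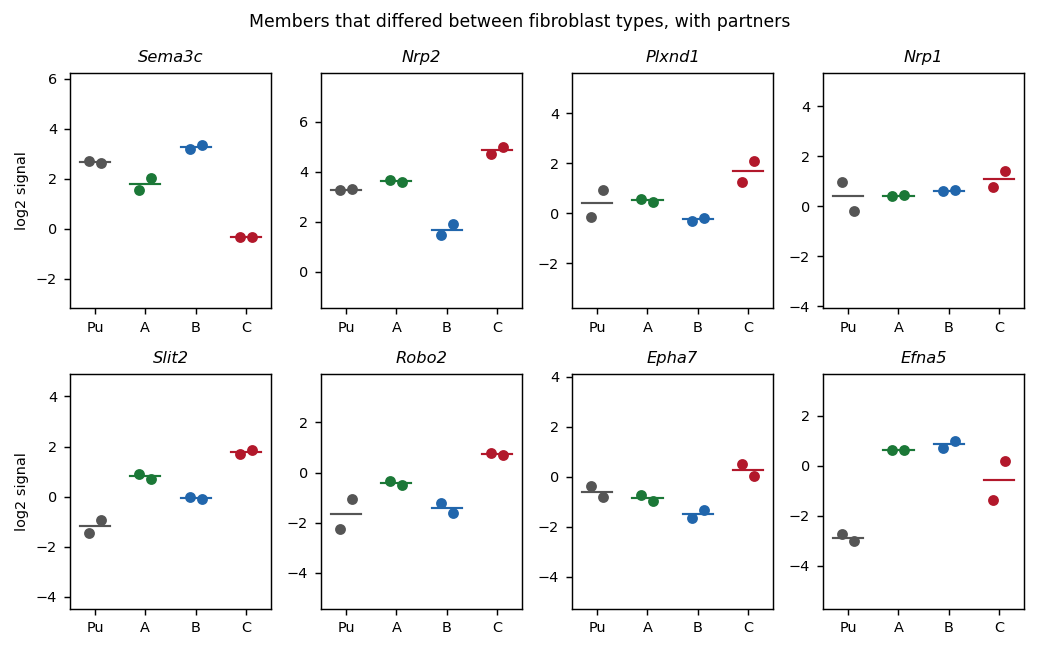
Log2 signal on each array (points) and the group mean (bars) for the 4 members called between types and 4 partners, with the same range in every panel. B minus C is 3.60 for Sema3c and -3.18 for Nrp2, and the Nrp1 points of B and C lie close together, at 0.60 to 1.42.

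Slit2 lay at 0.91 and 0.72 on A, 0.00 and -0.12 on B, and 1.68 and 1.88 on C. B minus C was -1.84 (SE 0.30, 3.58-fold, adjusted p = 0.0281), and each type was called higher than Pu (2.00 in A, 1.12 in B and 2.96 in C). Its receptor Robo2 had the same order, at -0.33 and -0.50 on A, -1.23 and -1.60 on B, and 0.77 and 0.68 on C, but B minus C of -2.14 (SE 0.42) missed the threshold (adjusted p = 0.0544); its other probes gave -2.61 and -1.97. Robo1 differed by -0.45 between B and C. Slit3 gave a B minus C of 1.06 (adjusted p = 0.189).

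Epha7 lay at -0.74 and -0.96 on A, -1.65 and -1.34 on B, and 0.50 and 0.02 on C, and B minus C was -1.76 (SE 0.32, 3.38-fold, adjusted p = 0.0414). Its second probe gave -0.51 and was not called (adjusted p = 0.674 in the fit of all probes), so the probes disagree. Its ligand Efna5 gave 1.43 (adjusted p = 0.230), not called. Differences of B minus C that missed the threshold were -1.53 for Epha1, -1.63 for Unc5c, -1.73 for Ntn3, 1.15 for Epha4 and 0.99 for Ntn1.

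These calls rest on few arrays. Without B1 or without B2 no member was called between B and C, and 0.0116% and 0.151% of all genes were; the log2 differences themselves ranged over the arrays left out from 3.51 to 3.69 for Sema3c and from -3.40 to -2.96 for Nrp2. Slit2 and Epha7 were also lost without A1, A2 or C2, and Epha7 without C1. In the 6 fibroblast arrays fitted alone, which was chosen after seeing the data, 9 members were called between B and C: the 4 above and Epha4, Ntn3, Plxnd1, Robo2 and Unc5c, with 4.72% of all genes called. Without C1 7 members and 5.34% of all genes were called, among the members Efna1, Epha1, Sema3d and Unc5a. Markers of other cells moved here too: of 8 endothelial genes 1, Tek, was higher in B than in C (log2 difference 3.57), and of 8 epithelial genes 1, Sftpc, was lower (-3.58). Sftpc lay at 3.14 and 1.27 on C and at -1.82 and -0.93 on B, Epcam was above background on 1 B and 1 C array, and the part of such cells in the member differences was not tested. Of the fibroblast genes, Dcn was higher in B (2.37).

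For 6 members the standing probe holds a long repeat or is placed away from the gene. The probes of Epha5, Ephb3, Sema4c and Sema6d hold a run of at least 16 bases of alternating G and T, that of Dcc a run of another unit, and those of Dcc and Plxna2 are placed by the files on another chromosome than the gene. The 30-base stretches below show the runs in capitals, with another probe of the same gene, all within the 60-base probe spans given in mm9.
Ephb3, the sole probe, chr16:21223165-21223224: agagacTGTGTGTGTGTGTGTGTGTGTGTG
Sema4c, the sole probe, chr1:36605998-36606057: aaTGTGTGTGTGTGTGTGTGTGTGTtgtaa
Epha5, brightest probe, chr5:84487348-84487407: cgaaatTGTGTGTGTGTGTGTGTGTGcgtg
Epha5, other probe, chr5:84483837-84483896: gttcccatctgcatttgtttgtgctttcag
Sema6d, brightest probe, chr2:124491609-124491668: agaggggcgaGTGTGTGTGTGTGTGTGTGT
Sema6d, other probe, chr2:124490948-124491007: taaagaggacaccatccttaaaacctgatg
The runs measure 33 bases in Ephb3, 23 in Sema4c and 20 each in Epha5 and Sema6d. Their signals were nearly flat over the arrays, from 8.98 to 9.68 for Ephb3, 9.30 to 9.67 for Sema4c, 8.99 to 9.62 for Epha5 and 7.68 to 8.67 for Sema6d. All 75 GT-run probes on the array had a median level of 9.19 (10th to 90th percentile 8.23 to 9.64) and a median range over arrays of 0.61, against -2.66 and 1.99 for probes with no such run. The other Sema6d probe lay at 1.67 and 1.77 on Pu, 0.02 and 0.18 on A, 0.79 and 0.70 on B, and -0.08 and 0.69 on C, a difference of -1.34 (adjusted p = 0.0132 in the fit of all probes), where the run probe gave -0.43 and no call. The other Plxna2 probe ranged from -1.30 to 1.33 and was not called (0.43). The 2 other Dcc probes were above background on no array. With these 6 probes left out, an alternative chosen after seeing the data, 61 members were tested and 33 were called, Dcc being lost and Sema6d gained.

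**Figure D5:**
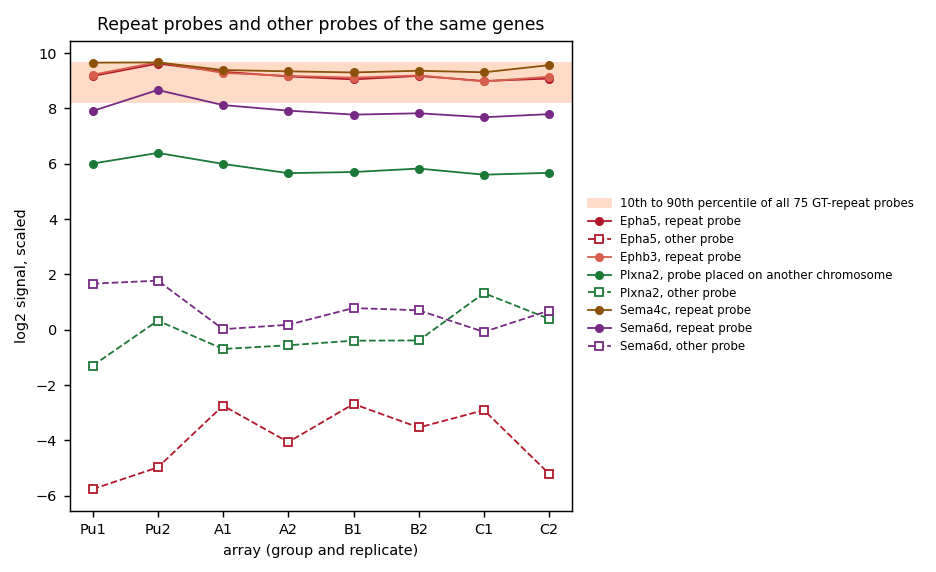
Scaled log2 signal of repeat or misplaced probes (filled points, solid lines) and of other kept probes of the same genes (open squares, dashed lines) on the 8 arrays; the band spans the 10th to the 90th percentile of the 75 GT-run probes. The run probes of Ephb3, Sema4c and Epha5 range over less than a unit across the arrays, while the other Sema6d and Plxna2 probes lie between -1.30 and 1.77.

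Outside the families, 55 genes were listed as further co-receptors, modulators and effectors of guidance signals, and 52 were tested. In fibroblasts against Pu 16 were higher and 6 lower, with a median log2 difference of 0.47. Over all genes 20.8% were higher and 16.3% lower, with a median of 0.10. Neo1, the netrin receptor neogenin, was at -0.83 and 1.30 on Pu and at 3.03 to 4.18 on the fibroblasts (3.40). Flrt2, a ligand of Unc5 receptors, was higher by 2.98, and Dpysl3, a collapsin response mediator, by 2.93. L1cam, a partner of Nrp1, was above background on no fibroblast array and at least 10.8-fold lower. Between B and C 1 of the 52 was higher and 1 lower, with 2.44% of all genes called. Trio, an exchange factor downstream of Dcc, was higher in B by 1.49, and Ablim3, an actin-binding protein, lower (-1.69). The list was drawn up with earlier results of these data known.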

How the data were processed

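The authors deposited 1 scanner file per array, which, per the file headers, holds the background-subtracted intensity of each spot; Agilent Feature Extraction 10.10.1.1 is named in the submitters' processing notes. The authors' deposited value table holds log2 values; set against the scanner files, each column was the log2 processed signal minus a constant, within 0.02 for 100% of 55653 probes, with a column median of 4.84 (4.85 for A2). It leaves no scale, centring or direction unknown and served as an alternative.

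Spots flagged as outliers were left out (28 probes, 0 of them members; 0 values saturated), log2 processed signals of a probe's spots were averaged, and each array's 75th percentile was subtracted. Probes were named through RefSeq accessions or symbols; 92 of the 101 member probes had the same name by accession. The brightest kept probe stood for a gene. All 8 arrays entered one limma 3.58.1 fit of 4 group means in R 4.3.3 (lmFit, contrasts.fit, eBayes; 4 residual and 3.07 prior degrees of freedom), with 7 comparisons. The number of arrays limits the precision. If no array of the dimmer group (for the fibroblast mean, of at least 1 type) had the probe above background, the fold is a bound, "at least", with the dimmer arrays set no lower than the lowest signal well above background. Intervals are 95% intervals of the fit. Scripts were tested on simulated data.

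The members, pairs, roles and lists were chosen with earlier results of these data known. Per-array values were planned for members called between types with their partners, and the 8 highest and 8 lowest called members of fibroblasts minus Pu. Values of some other members and of second probes are also given, outside this rule. Alternatives were other scalings, background corrections, filters, probe rules, variance models, a replicate block and each array left out. Figures used matplotlib 3.10.9 with Python 3.11.15.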

Additional observations from a re-analysis of the deposited data

Results flagged for a closer look

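Members were singled out where the effect against pulmonary single cells differed between fibroblast types by the test of that difference. Sema3c gave 3.60 for B minus C and 2.12 for A minus C. Nrp2 gave -3.18, Slit2 -1.84 and Epha7 -1.76 for B minus C. Nrp2 was the member called lower than Pu in B (-1.60) and higher than Pu in C (1.58); its second probe gave -0.28 for B, not called, and 1.94 for C. With 2 arrays a group, no test for a single array far from the others of its group was possible.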

How the results depend on the processing

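No difference called with all arrays turned direction: of 2432 values of such members under 22 settings, 2125 stayed called in the same direction and 307 in the same direction were no longer called. In many of these values the direction could not turn. Array weights, the trended variance, the replicate block and leaving out arrays outside a comparison keep its log2 difference, so only the call could change. Sema6c, not called with all arrays, was called lower without Pu1 (-0.84) and higher without Pu2 (1.03). The share of all genes called moved with the settings too and is given in brackets. Against 33 members called in fibroblasts minus Pu (37.1%), array weights gave 18 (17.9%), and leaving out 1 array gave 27 to 36 (26.6% to 43.9%). Against 26 in A minus Pu (27.1%), leaving out 1 array gave 14 to 33 (12.5% to 39.5%), and against 26 in B minus Pu (29.5%) 16 to 35 (13.6% to 40.7%). In C minus Pu, 29 (28.9%) became 16 with array weights (12.5%), 17 with only the arrays compared (13.0%) and 24 to 36 with 1 array left out (21.2% to 36.5%). In A minus B, 0 became 1 with normexp (0.122%) and 3 with array weights (1.39%), and stayed at 0 with any array left out. In A minus C, 1 (0.411%) became 0 (0% to 0.330%) with median scaling, quantile normalization, no filter on dim probes, the authors' table, the replicate block and only the arrays compared, and 0 to 3 with 1 array left out (0% to 2.82%). In B minus C, 4 (2.44%) became 9 with normexp (3.16%), array weights (4.26%) or the 6 fibroblast arrays alone (4.72%). It became 7 with probes above background on all 8 arrays (2.68%) or a trended robust variance (2.98%), 2 with no filter (1.08%), the replicate block (1.76%) or only the arrays compared (0.823%), and 0 to 9 with 1 array left out (0.0116% to 5.34%). The cause of these shifts was not tested, and counts both rose and fell when 1 array was left out.

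Same-numbered arrays of different groups deviated with correlations of -0.084 to 0.059, so no shared deviation by number was seen. This cannot tell whether same-numbered samples were prepared together. The replicate block left 2 members called between B and C (Sema3c and Nrp2) and 0 between A and C. A slide block was not run, since each slide holds either Pu or fibroblasts. Signal near background limits 8 called members of fibroblasts minus Pu to bounds: Epha6, Plxna4, Plxnb1, Robo4, Sema3e, Sema4a, Sema4f and Sema7a.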
